A study of Homo sapiens with 8 samples.

Results

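The ATF4 and CHOP arm of the cellular stress response was followed as 10 genes, a list of names drawn up with earlier results of these data known: ATF4, DDIT3 (which encodes CHOP), TRIB3, CHAC1, PPP1R15A, SESN2, DDIT4, CEBPG, VLDLR and NUPR1. All 10 are listed in both deposited tables, which together name 34164 genes. The libraries came from Kyse510, an established cell line of human esophageal squamous cell carcinoma (ESCC), with 1 library per condition and 8 in all. In the inhibitor arm, cells received vehicle (DMSO), SP2509, UNC0642 or the combination of both. SP2509, given at 7 µM, inhibits the histone demethylase LSD1, and UNC0642, given at 7 µM, inhibits the histone methyltransferase G9a. The inhibitors were given for 2 days. No duration is given for vehicle and no separate dose for the combination. In the knockdown arm, stable lines carrying a doxycycline- (Dox-) inducible hairpin against LSD1 (shLSD1) or G9a (shG9a) were selected with puromycin for 14 days and then kept without Dox or given Dox for 2 days. The reference for each Dox library was its own line kept without Dox. No library of an unrelated hairpin given Dox was analysed here, so the hairpin and the drug that induces it cannot be told apart.

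ATF4 is the transcription factor of the integrated stress response. Kinases that sense misfolded protein in the endoplasmic reticulum (PERK), lack of amino acids (GCN2), double-stranded RNA (PKR) or lack of heme (HRI) phosphorylate the translation factor eIF2α, most protein synthesis slows, and ATF4 mRNA is translated more. ATF4 then raises genes for amino acid supply and the gene of CHOP, a factor linked to cell death, while other targets (PPP1R15A, TRIB3) limit the response. Because much of the control of ATF4 lies in translation, its mRNA level reports only a part of its activity.

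The hairpin targets are shown first because the knockdown comparisons rest on them. Both 21-base sites were matched to the human genome (GRCh38), and both lie in coding exons of the canonical transcript. The shLSD1 site is in exon 16 of KDM1A, the gene of LSD1, on the plus strand at chr1:23077307-23077327. The shG9a site is in exon 24 of EHMT2, the gene of G9a, on the minus strand at chr6:31882978-31882998.
shLSD1 target: GCCTAGACATTAAACTGAATA
shG9a target: GCTCCAGGAATTTAACAAGAT

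Promoter windows from RefSeq (GRCh38.p14), from 250 bases before to 50 bases after a start site, were found for 9 of the 10 genes. They were searched on both strands for the C/EBP-ATF response element TGATGNAA, to which ATF4 binds as a dimer with a C/EBP protein, and for the ER stress response element, which is CCAAT followed by CCACG with 9 bases of any kind between them. Some genes have several windows, so counts of genes and shares of windows are unlike units. The first was in a window of 2 of the 9 genes, CHAC1 and CEBPG, and in 3.62% of all 35116 windows. The second was in 0 of the 9 and in 0.0769% of all windows. The DDIT3 windows hold the second element without its last base (CCAAT, the 9 bases and CCAC). This form was searched only after a DDIT3 window had been seen and is present in 0.316% of all windows. Every full element also matches it. For each of the 3 genes with a match, a single window is printed with the matched bases in capitals. A further DDIT3 window (chr12:57520468-57520767) holds the same match, and a further CEBPG window (chr19:33373459-33373758) holds none. In CHAC1 (chr15:40953221-40953520, plus strand) the match runs from -209 to -202 relative to the start site and reads on the opposite strand. In CEBPG (chr19:33373863-33374162, plus strand) it runs from -42 to -35, and in DDIT3 (chr12:57520465-57520764, minus strand) from -100 to -83.
CHAC1: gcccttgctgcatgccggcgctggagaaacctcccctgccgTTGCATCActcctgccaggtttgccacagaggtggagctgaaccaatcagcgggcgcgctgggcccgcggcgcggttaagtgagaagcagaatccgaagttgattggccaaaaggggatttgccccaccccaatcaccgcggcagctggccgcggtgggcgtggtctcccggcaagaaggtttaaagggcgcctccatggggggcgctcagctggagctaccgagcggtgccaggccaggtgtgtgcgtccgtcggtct
CEBPG: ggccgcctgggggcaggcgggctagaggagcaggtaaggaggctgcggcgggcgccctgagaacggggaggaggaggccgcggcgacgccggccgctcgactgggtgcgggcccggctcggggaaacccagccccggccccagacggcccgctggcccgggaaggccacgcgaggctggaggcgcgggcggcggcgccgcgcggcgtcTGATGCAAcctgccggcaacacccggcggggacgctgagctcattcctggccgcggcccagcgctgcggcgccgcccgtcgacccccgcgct
DDIT3: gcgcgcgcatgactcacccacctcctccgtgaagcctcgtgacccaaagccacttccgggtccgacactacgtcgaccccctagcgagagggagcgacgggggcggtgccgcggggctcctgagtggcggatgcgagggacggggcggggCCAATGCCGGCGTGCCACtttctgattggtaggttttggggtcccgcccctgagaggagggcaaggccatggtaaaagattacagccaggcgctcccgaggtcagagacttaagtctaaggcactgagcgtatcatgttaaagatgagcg
A match of letters is a description of the window and not evidence that a factor was bound there.

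Levels are given in FPKM, fragment counts divided by gene length and library total, as the authors deposited them. The 2 tables differ in the genes they list and in some gene models, so levels from different arms stand side by side and were not compared. Whole reads were estimated from the FPKM values, and library totals came out at 15662035 to 17889466. A gene was called in a comparison of 2 libraries when (FPKM + 1) differed by at least 1.3-fold, at least 1 of them reached 1 FPKM, and an exact binomial test of the reads (two-sided) gave an unadjusted p below 0.05. As every condition is a single library, the spread between replicates is unknown, and each test compares a pair of libraries, not conditions. Read ratios, and folds given in reads, compare a gene's reads as a share of each library's total. They can therefore differ from the plain ratio of the read numbers printed beside them. The ranges given with read ratios are 95% Clopper-Pearson intervals that cover counting error only. Log2 changes refer to FPKM + 1, a scale that understates the changes of genes with low levels. In these bulk libraries, a lower level per cell cannot be told apart from fewer cells that express the gene.

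The hairpins were checked on their own targets. KDM1A went from 26.0 to 6.29 FPKM with Dox in the shLSD1 line, a log2 change of -1.89, and rose in the shG9a line with Dox (log2 change 0.43). EHMT2 dropped with Dox in the shG9a line, where it was at 7.85 FPKM before and 4.76 after (log2 change -0.62), and was not called in the shLSD1 line. With both inhibitors EHMT2 was at 5.38 FPKM, against 11.1 FPKM in the vehicle library. Of the markers of squamous epithelium, all 6 reached 1 FPKM in at least 1 library, and their summed level ranged from 146 to 903 FPKM. KRT5 made up most of this sum (427 of 556 FPKM under vehicle), and the 6 did not move together. With SP2509, 4 rose and 1 fell (SOX2, from 18.3 to 0.313 FPKM), where 18.2% and 37.5% of all genes did. Markers of leukocytes summed to at most 0.117 FPKM and those of glandular epithelium to at most 0.0417 FPKM. Among 3 endothelial markers CDH5 was expressed (3.28 to 14.0 FPKM), and their sum was highest in the shLSD1 library with Dox (14.5 FPKM) and in the combination (12.4 FPKM), which are the libraries where CHAC1 was also highest in each arm. VWF passed 1 FPKM only in the shG9a library with Dox (1.42 FPKM), and PECAM1 stayed below 1 FPKM in all 8 libraries. Among 3 fibroblast markers, COL1A2 and DCN were near 0 and COL1A1 lay between 2.92 and 5.36 FPKM. Their part in the results was not tested.

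ATF4 (ENSG00000128272, chr22:39519695-39522685, plus strand) was abundant in every library. In the inhibitor arm it was at 255 FPKM under vehicle, 210 under SP2509, 186 under UNC0642 and 360 under the combination. The shLSD1 line held 304 FPKM without Dox and 293 with Dox, and the shG9a line 292 without Dox and 164 with Dox. The single inhibitors thus lay below vehicle and the combination above it, and in the knockdown arm 3 libraries lay close together while the shG9a library with Dox stood below them. The change with SP2509 stayed under the fold threshold (log2 change -0.28, read ratio 0.823, 0.801 to 0.847). UNC0642 lowered the level enough for a call (log2 change -0.45, 1.37-fold fewer reads, 1.33 to 1.41), and the combination raised it (log2 change 0.50, read ratio 1.41, 1.38 to 1.45). Dox in the shG9a line was accompanied by 1.78-fold fewer reads (1.73 to 1.84), whereas in the shLSD1 line the read ratio was 0.965 (0.942 to 0.989).

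CEBPG, which encodes a C/EBP protein that pairs with ATF4, moved more widely than ATF4. It was at 25.2 FPKM under vehicle, 7.81 under SP2509, 11.3 under UNC0642 and 24.3 under the combination. The combination was nearly level with vehicle (read ratio 0.964, 0.902 to 1.03, exact binomial p = 0.283), while SP2509 alone had 3.23-fold fewer reads (2.94 to 3.55). The shLSD1 line had 20.3 FPKM without and 20.7 with Dox, and the shG9a line 20.7 without and 8.02 with Dox. Of these 4 libraries, the shG9a library with Dox was again the low one.

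DDIT3 (ENSG00000175197, on the minus strand of chromosome 12), whose product CHOP acts downstream of ATF4, was highest in the controls of both arms. Under vehicle it was at 70.6 FPKM, against 17.3 under SP2509, 5.70 under UNC0642 and 22.6 under the combination. All 3 treated libraries lay below vehicle, UNC0642 furthest (log2 change -3.42, 12.4-fold fewer reads, 10.3 to 15.0). The combination did not go below the single inhibitors but above UNC0642 alone, with a read ratio of 3.97 (3.26 to 4.86). Against SP2509 alone the combination's read ratio was 1.31 (1.14 to 1.50) and its log2 change, 0.37, lay just under the fold threshold of 0.38. Among the knockdown libraries DDIT3 was at 49.9 FPKM before and 27.8 after Dox in the shLSD1 line, and at 59.5 before and 3.58 after Dox in the shG9a line. It fell in both lines, by 0.82 in the shLSD1 line and by 3.72 in the shG9a line on the log2 scale. The gene model of DDIT3 differs between the tables, since it ends at position 57520517 in the inhibitor table and at 57521737 in the knockdown table.

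TRIB3 encodes a pseudokinase that binds ATF4 and CHOP and restrains them. It was at 85.4 FPKM under vehicle, 3.75 under SP2509, 13.8 under UNC0642 and 22.0 under the combination. The order of the single inhibitors was thus the reverse of that for DDIT3. With SP2509 its log2 change was -4.19, on 229 reads against 4591 (read ratio 0.0439, 0.0383 to 0.0501). The combination lay above both single inhibitors (log2 change 2.28 against SP2509 and 0.64 against UNC0642) and below vehicle (-1.91). The shLSD1 line had 70.4 FPKM without and 63.5 with Dox, a difference under the fold threshold, and the shG9a line 80.2 without and 10.1 with Dox. In the latter TRIB3 fell, with 7.93-fold fewer reads (7.28 to 8.64).

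CHAC1 encodes an enzyme that degrades glutathione and is a target of ATF4 together with CHOP. In the inhibitor arm it was at 15.5 FPKM under vehicle, 0.737 under SP2509, 2.06 under UNC0642 and 28.4 under the combination. Both single inhibitors lay far below vehicle (21.0-fold fewer reads with SP2509, 14.2 to 32.1, and 7.48-fold with UNC0642, 5.87 to 9.66), and the combination above it (read ratio 1.84, 1.65 to 2.05). The shLSD1 line held 8.84 FPKM of CHAC1 without Dox and 20.5 with Dox, and the shG9a line 10.8 without Dox and 0.617 with Dox. With Dox it thus rose in the shLSD1 line (read ratio 2.32, 2.03 to 2.65) and fell in the shG9a line (17.5-fold fewer reads, 11.4 to 28.2). The lowest values rest on few reads, 27 with SP2509 and 22 in the shG9a line with Dox.

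PPP1R15A encodes GADD34, the subunit that directs a phosphatase to eIF2α and so ends the stress signal. It was at 77.1 FPKM under vehicle, 289 under SP2509, 59.7 under UNC0642 and 202 under the combination. Of the 10 genes only PPP1R15A rose with SP2509 alone (log2 change 1.89, read ratio 3.75, 3.62 to 3.89), and the combination lay between SP2509 and vehicle. The shLSD1 line went from 178 FPKM without to 46.0 with Dox, and the shG9a line from 180 to 19.9 FPKM. PPP1R15A fell with Dox in both lines, opposite to its direction with SP2509.

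SESN2 and DDIT4 encode proteins that restrain the mTOR kinase under stress, and their patterns differed. SESN2 was at 27.5 FPKM under vehicle, 7.74 under SP2509, 4.99 under UNC0642 and 18.7 under the combination, while the shLSD1 line had 18.3 without and 23.5 with Dox and the shG9a line 19.2 without and 5.03 with Dox. DDIT4 was at 136 FPKM under vehicle, 148 under SP2509, 123 under UNC0642 and 53.7 under the combination. SESN2 followed the order seen for CEBPG except that UNC0642 was lowest, whereas DDIT4 was near vehicle with either inhibitor and low only with both (log2 change -1.33, 2.54-fold fewer reads, 2.40 to 2.68). The uninduced lines held much DDIT4, 417 FPKM for shLSD1 and 459 for shG9a, and with Dox they held 136 and 73.4 FPKM. It fell in both lines, as PPP1R15A did.

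NUPR1 encodes a small chromatin-associated protein induced by stress, and VLDLR a lipoprotein receptor that ATF4 can raise. NUPR1 was at 31.8 FPKM under vehicle, 15.4 under SP2509, 10.8 under UNC0642 and 21.4 under the combination, while the shLSD1 line had 66.3 without and 64.8 with Dox and the shG9a line 71.3 without and 12.1 with Dox. VLDLR was the lowest of the 10 genes in every library except the shG9a library with Dox, at 1.41 FPKM under vehicle, 0.451 under SP2509, 1.44 under UNC0642 and 2.49 under the combination, at 1.25 and 1.35 FPKM without and with Dox for shLSD1, and at 1.02 and 0.705 for shG9a. NUPR1 fell in each treated library except the shLSD1 library with Dox. VLDLR rests on 75 to 392 reads, and its level with UNC0642 did not differ from vehicle beyond counting error (read ratio 1.02, 0.847 to 1.24, exact binomial p = 0.813).

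**Figure D1:**
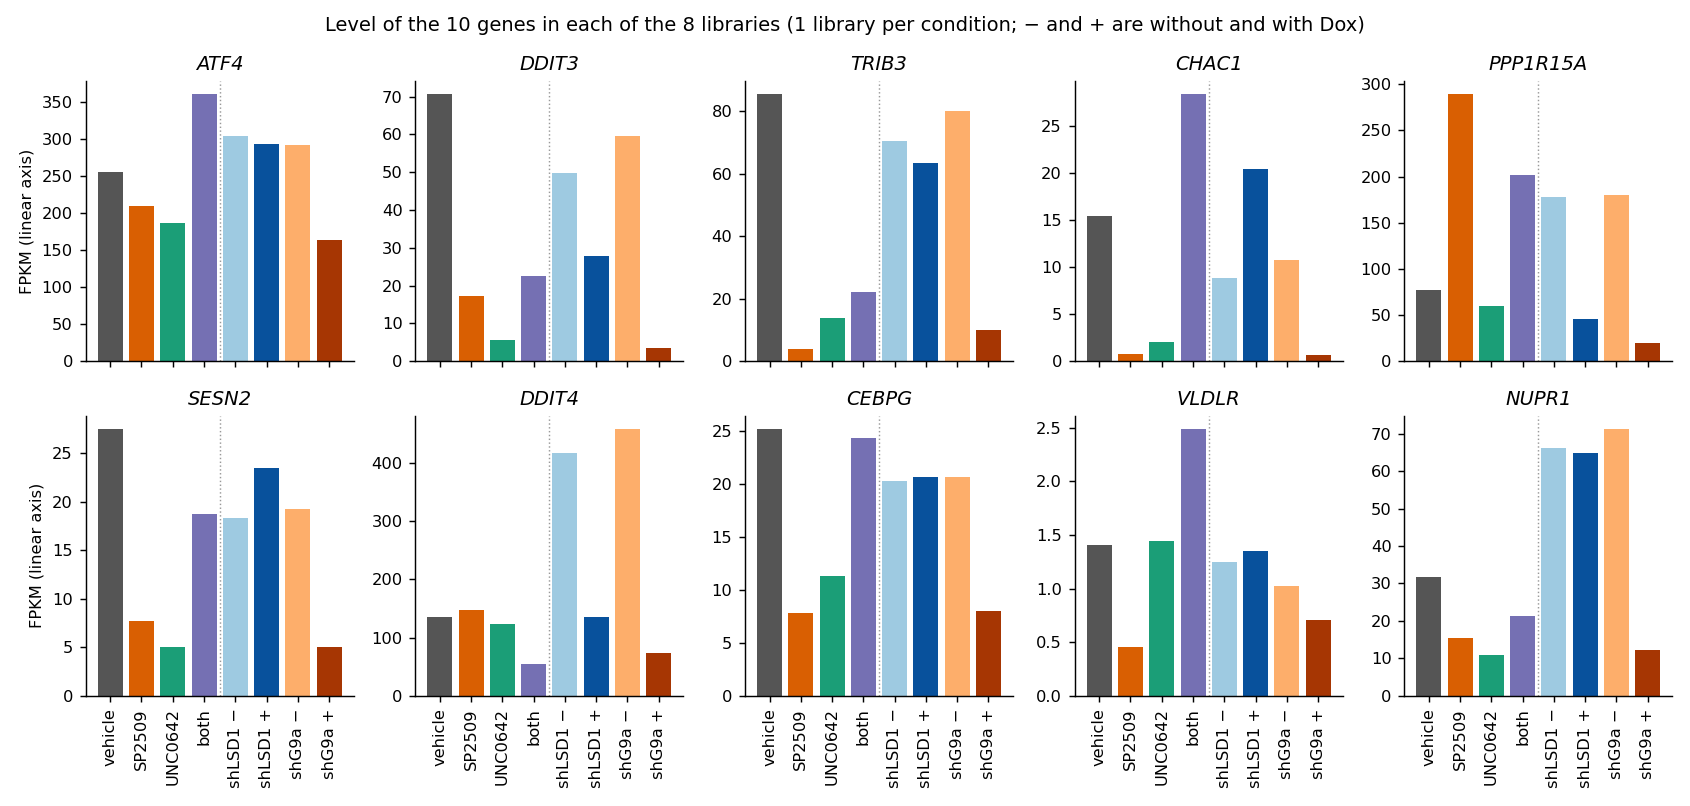
Level of each of the 10 genes in FPKM (vertical, linear, each panel on its own scale) in the 8 libraries, with inhibitor libraries left and knockdown libraries right of the dotted line; each bar is 1 library, so there are no error bars. DDIT3 is at 70.6 FPKM under vehicle and 5.70 under UNC0642, and CHAC1 is highest with both inhibitors, at 28.4 FPKM.

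The first question was what each inhibitor alone did to the arm. With SP2509, 7 of the 10 genes fell (DDIT3, TRIB3, CHAC1, SESN2, CEBPG, VLDLR and NUPR1), 1 rose (PPP1R15A) and ATF4 and DDIT4 were not called. The background was high, since 37.5% of the 13342 genes tested fell and 18.2% rose. The median log2 change of the 10 genes was -1.29, against -0.21 for all genes tested. With UNC0642, 7 genes fell (ATF4, DDIT3, TRIB3, CHAC1, SESN2, CEBPG and NUPR1) and 0 rose, where 14.0% of 13244 genes fell and 15.8% rose. The median was -1.28 for the 10 genes and -0.01 for all. PPP1R15A fell just short of the fold threshold with UNC0642 (log2 change -0.36, read ratio 0.775, 0.739 to 0.812) and was not called. CHAC1 and VLDLR were below 1 FPKM with SP2509 and were tested there because vehicle was above it; the same holds for both in the shG9a line with Dox.

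The combination was compared with vehicle and with each inhibitor. Against vehicle, 4 genes rose (ATF4, CHAC1, PPP1R15A and VLDLR), 5 fell (DDIT3, TRIB3, SESN2, DDIT4 and NUPR1) and CEBPG was not called, where 29.0% of 13907 genes rose and 29.1% fell. Against SP2509 alone, 7 genes were higher and 2 lower (PPP1R15A and DDIT4), where 39.4% of 13658 genes were higher and 22.2% lower. Against UNC0642 alone, 9 genes were higher and DDIT4 was lower, where 25.2% of 13637 genes were higher and 24.6% lower. The median log2 change of the 10 genes was -0.29 against vehicle, 0.97 against SP2509 and 0.99 against UNC0642, while for all genes tested it was -0.02, 0.20 and -0.01. These comparisons share libraries and are not independent of each other. CHAC1 differed most from the single inhibitors, with 38.6 times the reads of SP2509 (26.3 to 58.8) and 13.8 times those of UNC0642 (10.9 to 17.6).

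**Figure D2:**
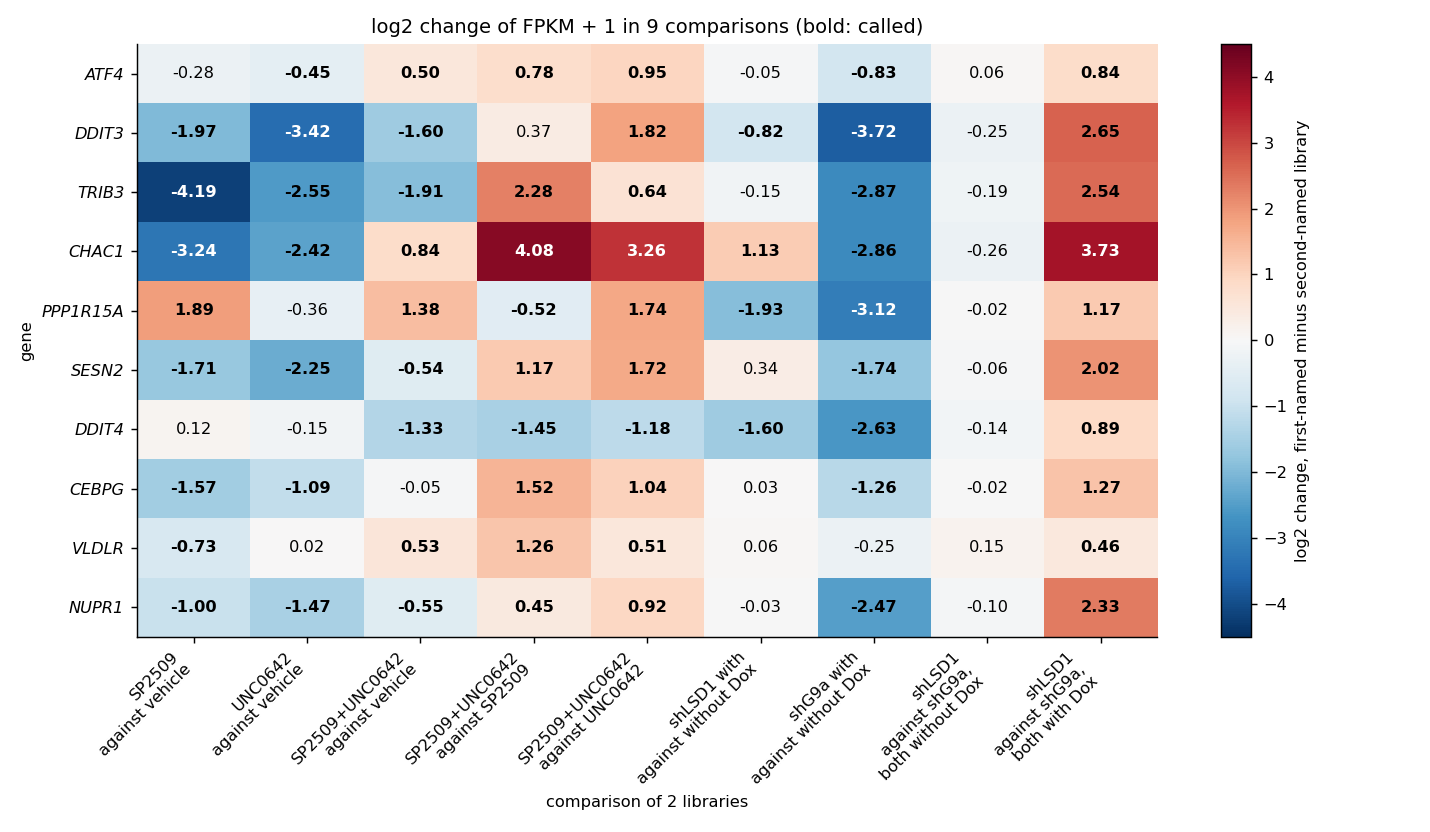
Log2 change of FPKM + 1 for each of the 10 genes (rows) in 9 comparisons of 2 libraries (columns), red where the first-named library is higher and blue where it is lower, with called changes in bold. The column of the uninduced lines holds 0 called genes, where 3.52% of all genes were called in either direction. The column of the induced lines holds 10, where 16.7% of all genes were higher and 16.0% lower.

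The log2 change with the combination was also set against the sum of the log2 changes with the single inhibitors. It lay above the sum by more than 0.38, the log2 value of the fold threshold, for 8 genes, below it for DDIT4 and within it for PPP1R15A, with a median departure of 2.27. The sum can fall below what FPKM + 1 allows, since a level of 0 bounds the change at -4.04 for CHAC1 and -6.43 for TRIB3, and their sums were -5.67 and -6.73. A departure above the threshold was thus fixed for CHAC1 whatever the combination gave, and its value of 6.51 (a measured change of 0.84) is a description of the scale as well as of the levels; with pseudocounts of 0.1 and 0.01 it was 7.94 and 8.15. For TRIB3 the departure was 4.83 (5.15 and 5.18 with the lower pseudocounts), for DDIT3 3.79, for SESN2 3.42, for CEBPG 2.61 and for NUPR1 1.93. ATF4 departed by 1.23 and VLDLR by 1.24, or 2.20 and 2.40 for VLDLR with the lower pseudocounts. PPP1R15A was near additive (-0.15), and DDIT4 was lower than the sum (-1.30). All 3 changes share 1 vehicle library, and the departure is given without a test. It was computed for the genes of the arm only. No share or median of all genes can therefore be set beside the 8 genes and the median of 2.27. CHAC1, whose departure above the threshold was fixed, is counted in both.

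**Figure D3:**
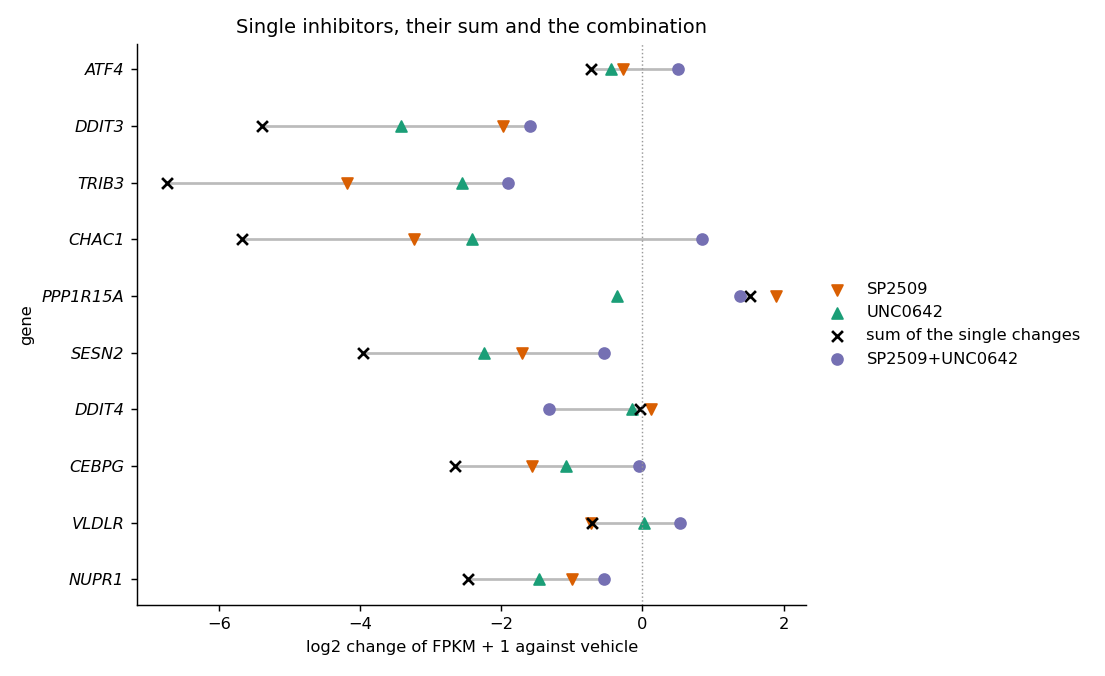
Log2 change of FPKM + 1 against vehicle (horizontal) for each of the 10 genes (vertical) with SP2509 (orange), UNC0642 (green), their sum (cross) and the combination (purple); each symbol compares 2 libraries. A grey line joins the sum to the combination, from -5.67 to 0.84 for CHAC1; the sums of CHAC1 and TRIB3 lie below -4.04 and -6.43, the lowest changes that FPKM + 1 allows for them.

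The second question was what knocking down each enzyme did. In the shLSD1 line, Dox was accompanied by a rise of CHAC1 and a fall of 3 genes, DDIT3, PPP1R15A and DDIT4, while the other 6 were not called. Of 12970 genes tested 22.7% rose and 10.4% fell, in numbers 2945 and 1348, or 2005 and 1793 once the median ratio (over genes reaching 5 FPKM) was set to 1. The median log2 change of the 10 genes was -0.04, against 0.13 for all. In the shG9a line 9 genes fell and 0 rose, and VLDLR was not called (read ratio 0.689, 0.537 to 0.882). Of 13080 genes tested 30.0% rose and 15.8% fell, in numbers 3922 and 2065, or 2682 and 2592 once centred. The median of the 10 genes was -2.55, against 0.18 for all. On the FPKM + 1 scale the largest falls were those of DDIT3 (-3.72), PPP1R15A (-3.12), TRIB3 (-2.87) and CHAC1 (-2.86), while by reads CHAC1 (17.5-fold fewer) and DDIT3 (16.6-fold) led.

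The lines were then compared with each other. Without Dox, 0 of the 10 genes were called, where 3.52% of 12449 genes were called in either direction, and that of CHAC1 was -0.26 on the log2 scale (shLSD1 minus shG9a). This pair of libraries is the nearest the series has to a repeat, although they are different lines. With Dox, all 10 genes were higher in the shLSD1 line than in the shG9a line, where 16.7% of 13174 genes were higher and 16.0% lower, and the median was 1.64 for the 10 genes and -0.05 for all. The difference between the lines in the log2 change with Dox lay above 0.38 for 9 genes and was 0.31 for VLDLR, with a median of 1.69. This difference was computed for the 10 genes only, so no share of all genes can be set beside the 9. It was 3.99 for CHAC1, 2.90 for DDIT3, 2.72 for TRIB3, 2.44 for NUPR1 and 2.09 for SESN2, and between 0.78 and 1.29 for ATF4, DDIT4, PPP1R15A and CEBPG. EHMT2 fell less in its line (to 4.76 from 7.85 FPKM) than KDM1A in its own (to 6.29 from 26.0 FPKM), and the part of knockdown depth in these differences was not tested.

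**Figure D4:**
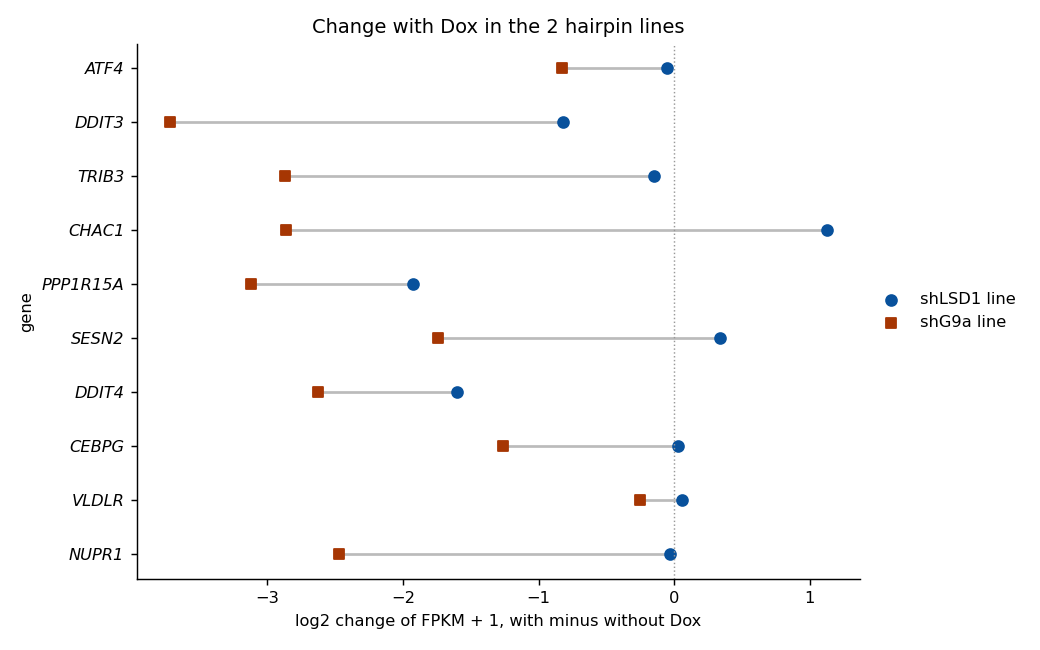
Log2 change of FPKM + 1 with Dox (horizontal) for each of the 10 genes (vertical) in the shLSD1 line (blue circles) and the shG9a line (brown squares), 1 library with and 1 without Dox per line. Every square lies left of its circle, with the widest gap for CHAC1 (1.13 and -2.86).

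Further targets of ATF4 and CHOP, 29 genes listed by name, were described in the same way. With SP2509, 24 fell and 5 rose, where 37.5% of all genes fell and 18.2% rose, so the share that rose was near the background. With UNC0642, 22 fell and 1 rose (ERO1A, an oxidase of the endoplasmic reticulum), where 14.0% and 15.8% of all genes did. The median log2 change of the list was -1.35 and -1.02, against -0.21 and -0.01 for all genes tested. With SP2509 the largest falls on the FPKM + 1 scale were those of PSAT1, an enzyme of serine synthesis, from 327 to 23.1 FPKM, SLC7A11, the cystine transporter, from 48.9 to 4.20 FPKM, and PCK2, a mitochondrial enzyme of gluconeogenesis, from 40.8 to 4.56 FPKM. By reads ADM2, a secreted peptide, fell further, from 6.12 to 0.144 FPKM (42.4-fold fewer reads, 23.4 to 85.5, on 11 against 410), than PSAT1 (14.1-fold, 13.2 to 15.1). The 5 that rose were KLHL24, ERO1A, TNFRSF10B, BBC3 and PMAIP1, with log2 changes from 0.43 to 1.33.
With the combination, 8 of the 29 rose and 13 fell, with a median of -0.30, against -0.02 for all genes tested. As 29.0% of all genes rose and 29.1% fell, the 8 that rose were at the background share. They were STC2, VEGFA, KLHL24, ERO1A, TNFRSF10B, BBC3, BCL2L11 and PMAIP1. PMAIP1 was at 22.2 FPKM with vehicle and 48.0 with the combination, BBC3 at 3.23 and 9.30 FPKM, and BCL2L11 at 6.14 and 14.0 FPKM; BCL2L11 had fallen with SP2509, to 3.73 FPKM. The genes named above for SP2509 were also lower than vehicle in the combination, PSAT1 with a log2 change of -0.59, PCK2 with -1.63, SLC7A11 with -2.12 and ADM2 with -0.97. Of the 27 genes tested against the single inhibitors, 23 were higher and 0 lower in the combination than with SP2509 (39.4% and 22.2% of all genes), and 21 were higher and 1 lower (SLC7A11) than with UNC0642 (25.2% and 24.6%).
In the shLSD1 line, 13 of 28 tested genes rose with Dox and 4 fell, where 22.7% and 10.4% of all genes did, with a median of 0.33 against 0.13. PMAIP1 rose most on the FPKM + 1 scale, from 18.1 to 44.3 FPKM (read ratio 2.44, 2.24 to 2.67), and by reads CTH, an enzyme of cysteine synthesis, from 1.63 to 5.11 FPKM (3.13, 2.38 to 4.16). ERO1A fell most on both scales, from 151 to 40.4 FPKM. In the shG9a line, 3 rose and 21 fell, where 30.0% and 15.8% of all genes did, with a median of -1.24 against 0.18. The 3 were KLHL24, BCL2L11 and PMAIP1 (from 21.3 to 43.9 FPKM), and on the FPKM + 1 scale the largest fall was that of STC2, a secreted glycoprotein, from 69.1 to 6.85 FPKM (10.1-fold fewer reads, 9.35 to 10.9). By reads ADM2 fell more, from 6.33 to 0.216 FPKM (29.3-fold, 17.9 to 51.7, on 16 reads against 448). Without Dox, 1 gene of 28 was called between the lines (SLC7A11, log2 difference -0.55), near the background of 3.52% of all genes. With Dox 24 of 28 were higher in the shLSD1 line and 0 lower (16.7% and 16.0% of all genes), with a median of 1.23.

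**Figure D5:**
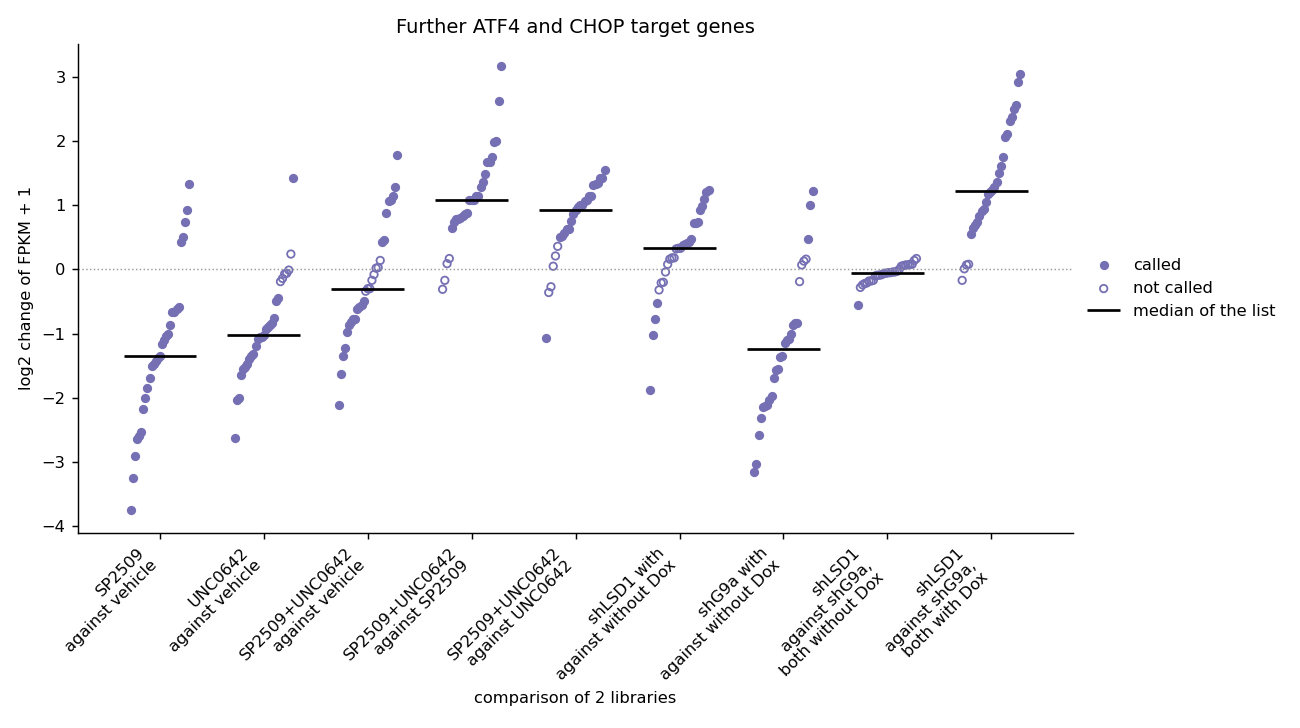
Log2 change of FPKM + 1 (vertical) for further ATF4 and CHOP target genes in each of the 9 comparisons (horizontal); each circle is 1 gene, filled where called, ordered by value within a comparison, and the black line is the median. The median is -1.35 with SP2509, -0.30 with the combination and -1.24 with Dox in the shG9a line.

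Upstream of ATF4, the 5 genes of the eIF2α kinases and of eIF2α itself changed less. With SP2509 and with UNC0642 only EIF2AK3, the gene of PERK, was called among them, where 37.5% and 14.0% of all genes fell. It was at 8.21 FPKM under vehicle, 3.37 under SP2509, 3.04 under UNC0642 and 7.70 under the combination, so the combination was nearly level with vehicle (log2 change -0.08). In that library EIF2AK1 and EIF2AK4 were lower (log2 changes -0.43 and -0.85) and EIF2S1, the gene of eIF2α, was higher (0.43). Of all genes, 29.1% were lower and 29.0% higher there. With Dox the called changes were those of EIF2AK4 in the shLSD1 line (0.39) and EIF2AK3 in the shG9a line (-0.45). In these lines 22.7% of all genes rose and 15.8% fell, respectively. Of the 5 eIF2B genes, whose complex recharges eIF2, EIF2B1 and EIF2B3 fell with SP2509 and with the combination (37.5% and 29.1% of all genes fell). None was called with UNC0642 or in the shLSD1 line, and EIF2B1 and EIF2B5 rose in the shG9a line (30.0% of all genes rose).
PPP1R15B, the constitutive counterpart of PPP1R15A, had a different pattern from it. It was at 23.7 FPKM under vehicle, 24.3 under SP2509, 26.4 under UNC0642 and 69.8 under the combination, a log2 change of 1.52 with the combination. It fell in the shG9a line, from 20.9 to 12.5 FPKM, and was not called in the shLSD1 line (19.3 and 25.0 FPKM). The gene of the catalytic subunit PPP1CA rose in the shG9a line (log2 change 0.56), and no other phosphatase gene of this group was called against its own control. Of all genes, 29.0% rose with the combination, and 30.0% rose and 15.8% fell in the shG9a line.

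Among 9 related factors of the basic leucine zipper family, 6 fell with SP2509 and 6 with UNC0642, against 37.5% and 14.0% of all genes. ATF3, a stress-induced repressor, rose with SP2509. It was at 17.4 FPKM under vehicle, 162 under SP2509, 18.1 under UNC0642 and 100 under the combination, the same order as PPP1R15A except that UNC0642 did not lie below vehicle. With Dox, ATF3 dropped to 14.1 FPKM from 34.2 in the shLSD1 line and to 3.66 from 35.8 in the shG9a line, again the directions of PPP1R15A. With the combination 2 of the 9 rose (ATF3 and CEBPA) and 5 fell, where 29.0% and 29.1% of all genes did, the largest fall being that of CEBPD, from 20.9 to 3.43 FPKM. Dox was accompanied by 4 rises (ATF5, CEBPB, CEBPD and XBP1) and 1 fall (ATF3) in the shLSD1 line (22.7% and 10.4% of all genes), and by 2 rises (ATF5 and CEBPA) and 5 falls in the shG9a line (30.0% and 15.8%).

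Markers of the other branches of the ER stress response, 6 genes of chaperones and ER quality control, were lower in most treated libraries. All 6 fell with SP2509, with UNC0642 and with Dox in the shG9a line (medians -2.29, -2.54 and -2.88), and 5 fell with the combination (-1.33). Of all genes tested, 37.5%, 14.0%, 15.8% and 29.1% fell in these comparisons, with medians of -0.21, -0.01, 0.18 and -0.02. HSPA5, the gene of the chaperone BiP, was at 1462 FPKM under vehicle, 511 under SP2509, 251 under UNC0642 and 627 under the combination. With Dox it dropped to 404 FPKM from 1195 in the shLSD1 line and to 102 from 1551 in the shG9a line. In the shLSD1 line 4 of the 6 fell (10.4% of all genes) and DNAJB9 rose, from 11.2 to 16.1 FPKM. The uninduced lines differed in 2 of the 6, DNAJB9 (log2 difference -0.41) and SDF2L1 (-0.57), both lower in the shLSD1 line. Of all genes, 3.52% were called between these lines in either direction.

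Relatives of the 10 genes did not share one pattern. The paralogs of CHAC1 and SESN2, CHAC2 and SESN1, fell with SP2509 (log2 changes -1.61 and -1.22) as those genes did, but were not called with UNC0642 and rose in both lines with Dox (1.42 and 0.66 in the shLSD1 line, 0.81 and 1.38 in the shG9a line). TRIB1 rose with SP2509 (1.56), where TRIB3 fell. LRP8, a relative of VLDLR, fell with SP2509 (-2.07) and rose with UNC0642 (0.82). Of the 7 relatives tested, 4 fell and 2 rose with SP2509, 0 fell and 3 rose with UNC0642, and 2 fell and 3 rose with the combination. The shares of all genes that fell and rose were 37.5% and 18.2%, 14.0% and 15.8%, and 29.1% and 29.0%, so the falls with the combination were at the background. With Dox, 6 rose and 1 fell (SESN3) in the shLSD1 line, where 22.7% and 10.4% of all genes did, and in the shG9a line 3 rose and 1 fell (TRIB1), where 30.0% and 15.8% did.

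The genes whose levels ran most like those of ATF4 and DDIT3 were sought among 6608 protein-coding genes, by Pearson's r over the 8 libraries of log2(FPKM + 1), with the mean of each table's 4 libraries subtracted. For ATF4 they were UBE2D3, a ubiquitin-conjugating enzyme (r = 0.961), CARS, the cysteinyl-tRNA synthetase (0.960), and MMADHC (0.956). For DDIT3 they were RBCK1 (0.993), SLC3A2, the heavy chain of amino acid transporters (0.978), and COG3 (0.972). CARS and SLC3A2 are also in the list of further targets. VLDLR stayed below the 5 FPKM needed for this measure. Among the other genes, r with ATF4 was highest for CHAC1 (0.91), CEBPG (0.87) and SESN2 (0.86) and lowest for DDIT4 (0.23), and r with DDIT3 was highest for NUPR1 (0.96) and SESN2 (0.91). The mean of each arm was subtracted from its own 4 libraries, so the 8 values are not independent, and no p is attached to r.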

How the data were processed

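RNA of 8 Kyse510 libraries, 1 per condition, was sequenced as paired reads of 150 bases. The authors mapped reads to GRCh38 and deposited FPKM values in 2 tables, for 31582 and 28942 genes; the aligner, the counting tool and the use of strand are not given in the sources used here. Conditions came from the sample labels. The 10 genes and the gene lists were chosen with earlier results of these data known, and every gene of a list entered its counts.

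Whole reads were estimated from the FPKM values (Python 3.11.15, scipy 1.17.1). Values of genes with a single exon fall on steps that give each library's total, and each other gene's length was chosen so that all its values were whole reads to within 0.001; 1 gene per table had none. The reads gave 99.6% to 99.8% of the totals. The procedure was tested on simulated libraries, all drawn from the levels of the vehicle library with counting error alone. It recovered 4 of 4 totals and the exact reads of 98.9% of 23688 genes. It called 200 of 200 changed genes in their direction and 96 of 12594 unchanged ones. The changed genes were well covered and their set changes exceeded the fold threshold, so their calls were nearly certain. Spread between replicates was not simulated, so the 96 give no rate of false calls for the real libraries. No column of another sample was used.

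Comparisons used a pseudocount of 1 FPKM, a minimum of 1 FPKM in 1 of the 2 libraries, a fold threshold of 1.3 and an unadjusted two-sided exact binomial p below 0.05, fitted on every gene of the table. All 10 genes passed the filter in all 9 comparisons. Alternatives were a fold threshold of 2, a minimum of 5 FPKM or none, pseudocounts of 0.1 and 0.01, median-centred ratios, adjusted p, no p, the fewest reads per gene, and both uninduced libraries averaged as the control. Genes named from the lists are those with the largest changes in a comparison, with others beside them named after their values were seen. GENCODE release 44 placed the hairpin targets. The files name CARS1, WARS1, GARS1 and NARS1 by their older symbols without the final 1.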

Additional observations from a re-analysis of the deposited data

Results flagged for a closer look

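CHAC1 moved in opposite directions with Dox in the 2 hairpin lines, with a log2 change of 1.13 in the shLSD1 line and -2.86 in the shG9a line. The difference was not tested, since each condition has 1 library. No group holds enough libraries to look for one that stands apart from the rest.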

How the results depend on the processing

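Of 830 values of the 10 genes recomputed under the alternatives, 800 kept their side of the threshold, 25 lost a call and 5 gained one. A reversal was counted only where the gene was called in either setting, and 0 were found. Changes near 0 that were not called could change sign. Centring took CEBPG from 0.03 to -0.08 and VLDLR from 0.06 to -0.05 in the shLSD1 line. At a fold threshold of 2, 4 genes instead of 9 were called for the combination against vehicle and 6 instead of 10 against UNC0642. Of all genes tested, 2841 of 13907 and 1587 of 13637 were called in these comparisons at that threshold. For the 10 genes, 19 calls were lost in all. VLDLR, which never reaches 5 FPKM, lost 5 calls under that minimum. The median log2 ratio used for centring was -0.09 with SP2509, 0.12 for the combination against SP2509, 0.11 in the shLSD1 line and 0.14 in the shG9a line. Centring changed 2 calls: NUPR1 was lost for the combination against SP2509 and VLDLR was gained in the shG9a line (-0.39). Lower pseudocounts added calls for DDIT3 (combination against SP2509, 0.39) and VLDLR (shG9a line, -0.48 and -0.53).

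Counts over all genes moved by more than 1.5 times at a fold threshold of 2 and a minimum of 5 FPKM. With SP2509 they went from 7437 to 2531 and 4401, with UNC0642 from 3946 to 805 and 2324, and with the combination from 8078 to 2841 and 4949. Against SP2509 the combination went from 8411 to 3369 and 4971, and against UNC0642 from 6792 to 1587 and 4157. The shLSD1 line went from 4293 to 672 and 2687, the shG9a line from 5987 to 1241 and 3789, and the induced lines from 4307 to 771 and 2683. The 438 genes of the uninduced lines became 47 and 141, and also 747 and 781 with lower pseudocounts, 280 with adjusted p and 940 with fold and FPKM only.

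No paired analysis was possible because each condition has 1 library and the labels carry no replicate numbers. With a single library per condition, none was left out. The lowest read numbers were those of CHAC1, 22 and 27, and of VLDLR, 75 to 392.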
